A study of Homo sapiens with 24 samples.

Results

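The replication-dependent histone genes supply the histones H1, H2A, H2B, H3 and H4 that package newly made DNA. They were taken as the protein-coding genes whose GENCODE 29 symbol begins with HIST1H, HIST2H, HIST3H or HIST4H. Of 71 such genes in the annotation, 29 were among the 12285 genes of the deposited table, and the other 42 were not in it and were not analysed here. All 29 were followed in K562, an established human leukaemia line with erythroid features, at 24 time points taken every 2 h from 0 h to 46 h after centrifugal elutriation. Elutriation sorts cells by size and so gives a population that starts near one stage of the cell cycle. The cells grew in RPMI with 10% bovine calf serum and penicillin and streptomycin (P/S) at every time point, with no other treatment. Each time point was 1 library of total RNA, so values carry no replicate error. The tests use the spread around a time course and treat time points as exchangeable, which neighbouring time points of 1 culture are not. The study named 16 h and 18 h as STRIPEs, time points at which many transcripts depart from their neighbours, and 32 h as a milder case.

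Most mRNAs end in a poly(A) tail. The mRNAs of these genes usually end instead in a short hairpin just after the stop codon, which is bound by the stem-loop binding protein SLBP. They are made and stabilised while DNA is replicated and are degraded when replication stops. Several of the genes also give longer, polyadenylated transcripts in differentiated or resting cells, with HIST1H1C, HIST1H2BK, HIST1H2AC, HIST1H2BD and HIST2H2BE known for it. Whether the libraries were selected for poly(A) is not given in the sources used here, and transcripts with and without a tail cannot be told apart in these values.

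The hairpin was looked for in the annotated transcripts because the replication-dependent transcripts usually end at it. Its presence alone does not set them apart from polyadenylated ones, since a transcript can hold it and run on past it. The search took only perfect hairpins of 6 paired bases around a loop of 4, with GG opening the stem and TT opening the loop. Those opening letters were therefore set by the search. Such a hairpin was found in 16 of the 29 genes. In 12 of those 16, an annotated transcript ran more than 100 bases beyond it, and 10 of the 29 genes had the polyadenylation hexamer AATAAA in the last 100 bases of a transcript. For 10 genes the annotation held a single transcript whose length is a multiple of 3, as coding-only models have, and where a model ends at the stop codon no hairpin could be seen. HIST1H2AG with 2250 bases and HIST1H4C with 435 are longer than the shortest model of their class (393 and 312 bases), so that this need not hold for them. The 4 forms of the hairpin were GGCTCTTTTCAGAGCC in 10 genes, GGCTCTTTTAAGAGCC in 3, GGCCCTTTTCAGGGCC in 2 and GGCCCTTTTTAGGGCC in 1. One example of each follows, 5′ to 3′ from the GENCODE 29 transcripts, with the hairpin in capitals and 5 bases on each side.
HIST1H2AC: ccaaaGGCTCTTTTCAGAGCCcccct
HIST1H2BD: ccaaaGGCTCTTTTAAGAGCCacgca
HIST1H4H: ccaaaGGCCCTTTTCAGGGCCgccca
HIST1H4I: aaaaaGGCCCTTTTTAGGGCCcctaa

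RefSeq promoter windows of GRCh38.p14, from 250 bases before to 50 after the start, were matched for 26 of the 29 genes, all but HIST1H4C, HIST1H3B and HIST1H3J. The CCAAT box was in 23 of the 26 windows, against 34.6% of 35116 promoters. TATAAA was in 16, against 11.5% of all promoters. ATTTGCA, the core of the octamer that POU2F1 (Oct-1) binds, was in 13, against 4.2%, and all 13 were H2A or H2B genes. AAACACA, the core of the H1 box, was in both H1 windows and in no other, against 5.6%. The G+C-rich GGGCGG was in 3, against 45.0%. Each motif was searched on both strands, and matches of TATAAA on opposite strands can overlap. The 26 windows are not all separate. In 7 divergent pairs, holding 14 of the genes, the starts are 194 to 248 bases apart. The windows of a pair overlap, and a match in the overlap is counted for both genes. These are matches of letters, not sites shown to be bound. The windows printed here are one shared by a divergent H2A and H2B gene (HIST1H2AC, chr6:26123922-26124221, plus strand), the window of HIST1H2BJ (chr6:27132746-27133045, minus strand), which HIST1H2AG shares, and that of HIST1H1C (chr6:26056421-26056720, minus strand). Capitals mark the matches to the 5 motifs.
HIST1H2AC: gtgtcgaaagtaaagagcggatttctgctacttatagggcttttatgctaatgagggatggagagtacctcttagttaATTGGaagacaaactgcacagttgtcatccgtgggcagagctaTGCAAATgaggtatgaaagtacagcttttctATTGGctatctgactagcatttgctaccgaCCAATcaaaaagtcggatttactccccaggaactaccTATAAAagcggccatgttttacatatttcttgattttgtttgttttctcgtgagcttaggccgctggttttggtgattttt
HIST1H2BJ: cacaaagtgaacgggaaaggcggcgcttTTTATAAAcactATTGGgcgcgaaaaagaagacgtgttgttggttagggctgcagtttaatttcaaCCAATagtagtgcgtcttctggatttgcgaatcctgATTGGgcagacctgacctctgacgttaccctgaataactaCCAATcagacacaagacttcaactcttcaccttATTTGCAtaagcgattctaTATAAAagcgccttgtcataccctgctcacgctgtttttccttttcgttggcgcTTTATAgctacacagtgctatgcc
HIST1H1C: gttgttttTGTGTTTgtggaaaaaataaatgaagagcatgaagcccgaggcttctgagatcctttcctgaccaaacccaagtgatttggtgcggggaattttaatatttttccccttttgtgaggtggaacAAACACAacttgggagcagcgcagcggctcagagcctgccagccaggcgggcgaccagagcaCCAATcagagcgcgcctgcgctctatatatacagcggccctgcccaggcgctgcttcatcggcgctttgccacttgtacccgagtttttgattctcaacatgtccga

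The genes in the table were 2 of 6 annotated H1 genes, 8 of 17 H2A, 11 of 18 H2B, 3 of 15 H3 and 5 of 15 H4. By cluster, 27 of 55 came from the large HIST1 cluster of chromosome 6, 1 of 12 from HIST2 (HIST2H2BE), 1 of 3 from HIST3 (HIST3H2A) and 0 of 1 from HIST4. Every gene of the table reached 1 FPKM, the fragments per kilobase of transcript, scaled to sequencing depth, at 12 or more time points. A histone gene below that level is therefore not seen here. A further gene, HIST2H2BC, is annotated as a pseudogene and was left out. As a check of the cells, all 10 K562 markers were in the table. Their medians went from 45.2 FPKM for TAL1 to 2430 FPKM for the fetal globin HBG2, with GATA1 at 133 FPKM. Of the markers of other cells, 2 of 5 fibroblast and 1 of 4 granulocyte and monocyte genes were in it. These were COL1A2 (median 3.04 FPKM), FN1 (4.81) and LYZ (20.8). Of the lymphoid markers, the leukocyte gene PTPRC had a median of 29.6 FPKM. COL1A1, CD3E and MPO were not in the table.

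The histone genes differed widely in level. HIST1H1C, which encodes a linker histone of the H1 class, had the highest mean, 314 FPKM, which was 44.3% of the summed means of the 29 genes. Next came HIST1H2BK at 80.5, HIST1H2AC at 74.7 and HIST1H2BJ at 51.0 FPKM, and these 4 genes made up 73.4% of the sum. HIST1H3H had a mean of 27.5, HIST1H2BD 24.4, HIST3H2A 20.9, HIST1H2BC 18.8, HIST1H4H 13.7 and HIST2H2BE 12.5 FPKM. The remaining 19 had means from 1.07 to 9.65, and 14 genes lay under 5. The median of the 29 means was 6.70 FPKM, against 13.7 over all genes of the table. FPKM divides by the length of the annotated transcript, which was 312 to 4137 bases for the longest transcript of these genes. Core histones are needed in equal numbers in the nucleosome. Of the summed means here, the H2B genes gave 29.9%, H2A 17.5%, H3 4.61% and H4 3.36%. These shares cover only 11 of 18 H2B, 8 of 17 H2A, 3 of 15 H3 and 5 of 15 H4 genes, and poly(A) selection is not known. They therefore do not measure the balance of the classes.

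Some of these values rest on sequence that other genes share. Of the 50-base stretches of their annotated transcripts, all were found in another gene for HIST1H2AK, 98.0% for HIST1H2AD, 86.3% for HIST1H2AM, 74.1% for HIST1H2BK, 62.3% for HIST1H2AI and 40.9% for HIST1H3J. HIST1H2AK lies within HIST1H2BN on the opposite strand, and HIST1H2AM overlaps HIST1H3J on the same strand. Strand use in the counting is not given in the sources used here, so reads of HIST1H2AK and HIST1H2BN cannot be told apart. The values of these 6 genes are uncertain for that reason.

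The histone genes were high in the first libraries, low by the middle of the first day, and high again in the last library. Summed over the 29 genes, the level was 1264 FPKM at 0 h and 1183 at 2 h. It had gone down to 981 by 4 h, 812 by 6 h and 655 by 14 h. It was lowest with 475 at 18 h, a STRIPE, stood at 602 at 24 h and 579.8 at 34 h, and reached 891 at 46 h. As a share of all FPKM in the table, whose sum was highest at 18 h, this was 0.259% at 0 h, 0.0804% at 18 h and 0.195% at 46 h. The level at 24 h was thus 0.476 times that at 0 h. Without HIST1H1C the sum was 691 at 0 h, 302 at 14 h (its lowest), 326 at 18 h, 375 at 24 h and 561.5 at 46 h. At 24 h, 28 of the 29 genes were below their own value at 0 h, and the median ratio was 0.565. At 46 h, 19 of 29 were below 0 h, with a median ratio of 0.861. The shares of all genes below 0 h at these time points were not taken.

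**Figure D1:**
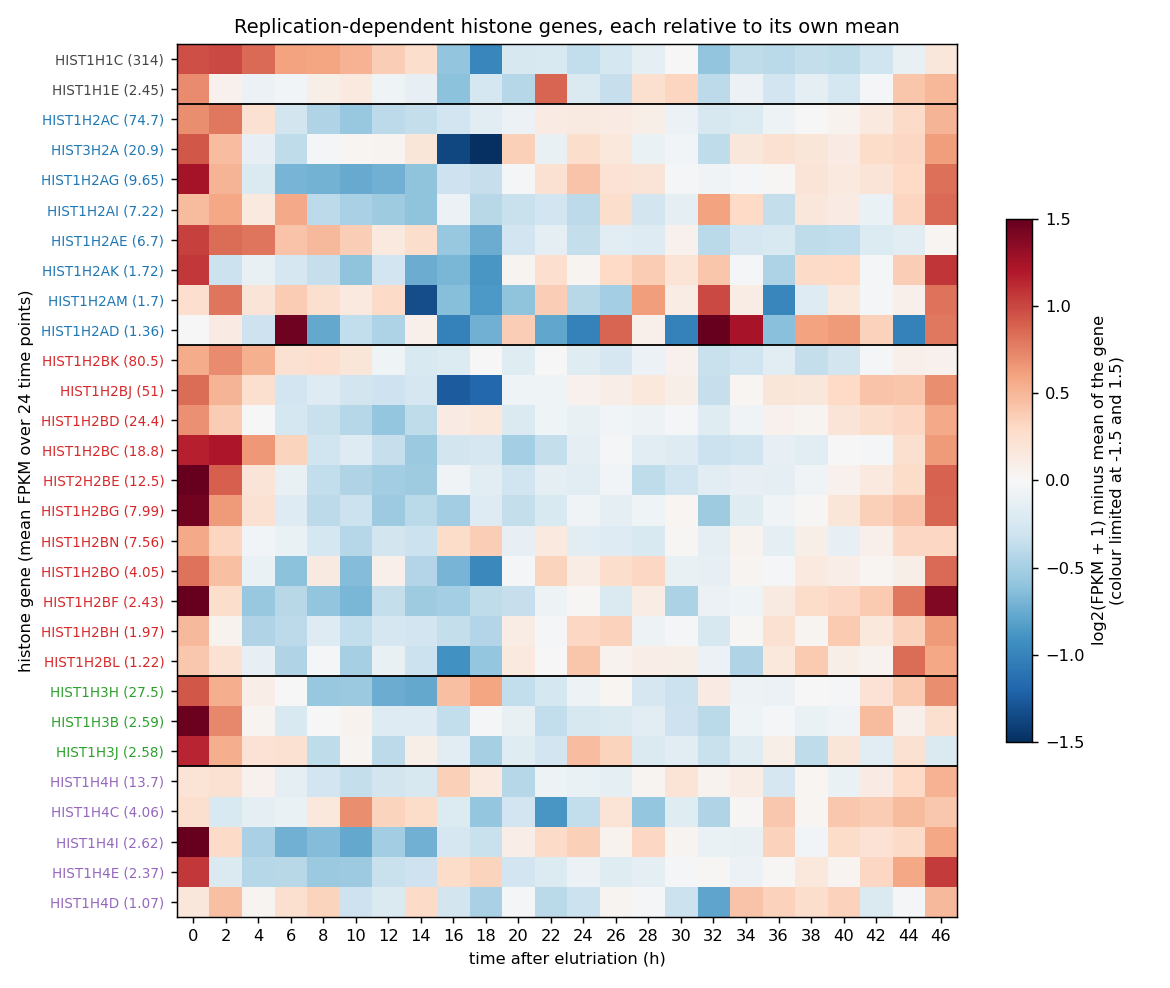
Each row is 1 of the 29 histone genes, grouped by class with its mean FPKM in brackets, each column 1 library (h after elutriation), and the colour is log2(FPKM + 1) minus the mean of the gene. The first columns and the last one are red in most rows, the columns from 8 h to 18 h mostly blue, with rows of the opposite colour at 16 h and 18 h (HIST1H3H) and at 6 h and 32 h (HIST1H2AD).

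The first and last libraries were also where single genes were highest. Of the 29 genes, 14 had their highest value of all 24 time points at 0 h, against 4.71% of all genes of the table. A further 4 were highest at 2 h (HIST1H1C, HIST1H2BK, HIST1H2AC and HIST1H2BC) and 6 at 46 h. For 2 h and 46 h the shares of all genes were not taken. Within the first day, 25 of 29 had their maximum in one of the first 2 libraries, as did 15.2% of all genes. Within the second day, 21 of 29 were highest at 46 h, against 16.4%. These counts, and the early and late ratios that follow, were chosen after the values were seen and are given as a description.

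**Figure D2:**
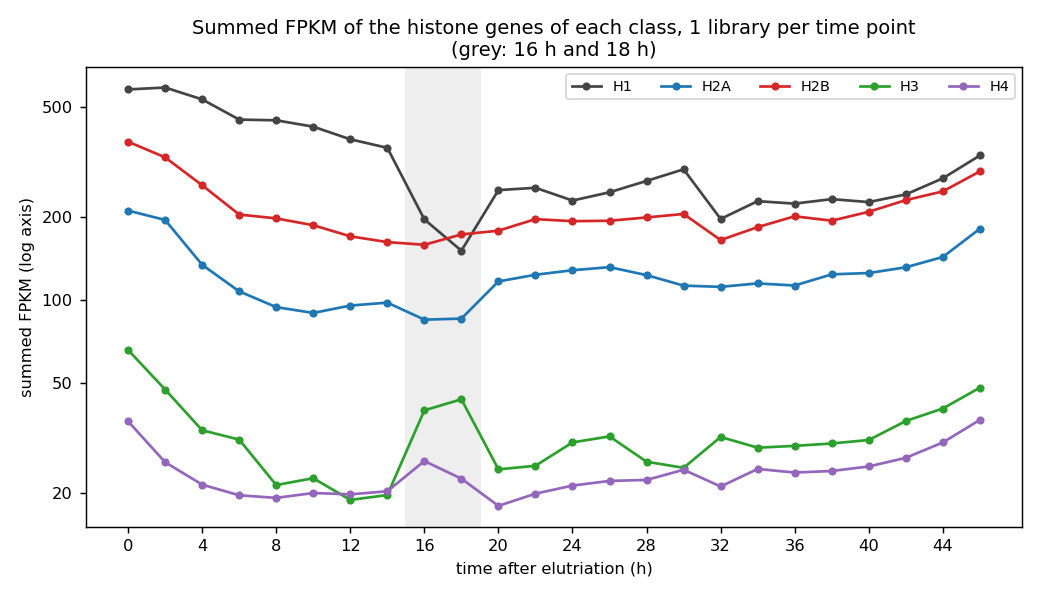
Summed FPKM of the genes of each class (log axis) against time after elutriation (h), 1 library per point. All 5 classes stood higher at 0 h than at 14 h and higher at 46 h than at 34 h, and at 16 h and 18 h (grey) H1 was low while H3 was high.

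Of the 2 linker histone genes in the table, HIST1H1C made up nearly all of the H1 signal. From 0 h to 22 h in steps of 2 h it was at 573, 585, 529.6, 447, 444, 421, 379, 353, 194, 149, 248 and 249 FPKM. From 24 h to 46 h it was at 227, 244, 267, 294, 195, 226, 221, 229.7, 224, 239, 272 and 329.6 FPKM. The 8 time points up to 14 h were therefore all above every later one, and the lowest values were those at 18 h, 16 h and 32 h. The other, HIST1H1E, had 1.18 FPKM at its lowest (16 h), a median of 2.17 and 5.14 at its highest (22 h), with 4.46 at 0 h.

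HIST1H2AC, the most abundant H2A gene, was at 118, 126, 85.2, 60.0, 52.6, 48.7, 55.0, 56.3, 59.3, 64.6, 68.4 and 79.0 FPKM from 0 h to 22 h. On the second day it was at 79.8, 79.1, 77.1, 68.5, 61.5, 62.9, 68.8, 73.1, 75.3, 80.6, 88.7 and 103 FPKM. It had a low at 10 h, a broad maximum of 79.8 at 24 h, a second low at 32 h and a further climb to 46 h, with no break at 16 h and 18 h. HIST1H2AG had the same course at a lower level, with 22.8, 13.2, 7.65, 5.20, 5.11, 4.92, 5.08, 5.604, 7.06, 6.89, 8.80 and 10.8 FPKM on the first day. From 24 h on it had 12.5, 10.7, 10.5, 8.82, 8.68, 8.89, 9.19, 10.5, 10.1, 10.5, 11.4 and 16.8 FPKM. Its value at 24 h was higher than those at 22 h and 26 h. That held for 9 of the 29 genes, and the share of all genes was not taken, so it is not read as a trait of the family.

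HIST3H2A, the only gene of the HIST3 cluster here, broke away at the STRIPEs. It was at 38.3, 27.2, 17.9, 14.8, 19.1, 20.0, 20.2 and 22.2 FPKM from 0 h to 14 h, then at 6.96 and 4.83 at 16 h and 18 h, and at 25.3 and 18.1 at 20 h and 22 h. On the second day it was at 23.7, 22.0, 18.1, 19, 14.8, 22.2, 23, 22.4, 21.5, 23.9, 24.6 and 30.8 FPKM. Its values at 16 h and 18 h were below all others. HIST1H2AI ranged from 4.20 FPKM at 14 h to 13.2 at 46 h (median 6.40), and HIST1H2AE from 3.38 at 18 h to 13.9 at 0 h (median 5.54). HIST1H2AK ranged from 0.395 at 18 h to 4.41 at 46 h, with 4.34 at 0 h.

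The 11 H2B genes were the largest class. HIST1H2BK was at 116, 129, 114, 92.7, 93.8, 89.6, 75.3, 67.3, 68.2, 79.4, 69.2 and 78.5 FPKM on the first day and at 69.3, 66.1, 74.0, 82.4, 62.4, 64.0, 70.4, 61.2, 65.2, 76.9, 83.3 and 82.5 FPKM on the second. Only its first 3 libraries were above 100. HIST1H2BJ was at 87.4, 69.4, 57.2, 39.7, 42.4, 40.0, 39.0, 40.4, 19.9, 20.8, 46.3 and 46.5 FPKM, then at 50.9, 52.2, 54.2, 51.6, 38.1, 49.4, 55.2, 54.6, 59.8, 65.6, 65.1 and 79.0 FPKM. Like HIST3H2A it was lowest at 16 h and 18 h.

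The other H2B genes were highest at the start or end of the course. HIST1H2BD went from a lowest 15.5 FPKM at 12 h to 38.9 at 0 h (median 23.3). HIST1H2BC ranged from 11.6 at 14 h to 42.3 at 2 h (median 15.7). HIST2H2BE, the only HIST2 gene here, ranged from 7.67 at 14 h to 36.0 at 0 h (median 10.5) and had 22.3 at 46 h. HIST1H2BG (4.79 to 22.1 FPKM), HIST1H2BN (5.27 to 11.5) and HIST1H2BF (0.935 to 8.77) were also highest at 0 h. HIST1H2BO (1.48 to 7.71) and HIST1H2BH (1.12 to 3.51) were highest at 46 h, and HIST1H2BL (0.143 to 2.83) at 44 h.

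Among the H3 genes, HIST1H3H was at 50.8, 38.8, 28.2, 26.3, 17.3, 17.5, 15.3, 15.0, 36.2, 39.9, 20.2 and 21.6 FPKM on the first day. It was at 24.9, 26.8, 22.0, 20.9, 28.6, 24.9, 24.6, 26.4, 25.9, 30.6, 34.8 and 43.2 FPKM on the second. At 16 h and 18 h it stood above its neighbours, the reverse of HIST1H1C, HIST3H2A and HIST1H2BJ. HIST1H3B ranged from 1.58 FPKM at 32 h to 8.51 at 0 h (median 2.23) and HIST1H3J from 1.45 at 18 h to 6.64 at 0 h (median 2.09).

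HIST1H4H, the most abundant H4 gene, was at 15.8, 16.1, 14.2, 12.3, 10.9, 10.3, 11, 11.3, 17.5, 15.1, 9.76 and 12.8 FPKM on the first day. From 24 h on it was at 12.5, 12.1, 14.0, 15.8, 14.0, 14.7, 11.2, 13.8, 12.6, 14.9, 16.8 and 19.8 FPKM. Its range was narrow, and 16 h was its highest value of the first day. HIST1H4I was at 8.94, 3.12, 1.41, 1.05, 1.15, 0.984, 1.36, 1.05, 1.83, 1.68, 2.61 and 3.12 FPKM, then at 3.34, 2.49, 3.19, 2.47, 2.15, 2.12, 3.29, 2.28, 3.08, 2.93, 3.11 and 4.06 FPKM. Its value at 0 h was more than double any other. HIST1H4E was at 5.68 at 0 h, 1.18 at its lowest (8 h) and 5.67 at 46 h. HIST1H4C went against the rest, lowest at 22 h (1.67) and highest at 10 h (6.90), and HIST1H4D ranged from 0.168 at 32 h to 1.82 at 46 h.

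The early level, the mean of 0 h and 2 h, was set against the mean of 8 h to 14 h on the log2(FPKM + 1) scale, which understates the ratio of low genes. It was at least 1.5 times as high for 20 of the 29 genes, against 3.01% of all genes. The median was 1.91-fold for the histone genes, or 0.94 in log2 units, against −0.00 over all genes of the table. Only HIST1H4C had an early level below the later one. By class, 7 of 8 H2A, 8 of 11 H2B, 3 of 3 H3, 2 of 5 H4 and 0 of 2 H1 genes passed 1.5-fold. The largest ratios were 3.32-fold for HIST2H2BE (29.2 against 8.10 FPKM), 3.30-fold for HIST1H4I (6.03 against 1.13), 3.15-fold for HIST1H2BF (5.75 against 1.15) and 3.08-fold for HIST1H2AG (18.0 against 5.18). HIST1H2AM at 1.51-fold was just inside the threshold and HIST1H2BK just outside (0.58 log2 units). HIST1H1C had 1.45-fold (579 against 399).

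The late level, the mean of 44 h and 46 h, was set in the same way against the mean of 34 h to 40 h. It was at least 25% higher for 20 of the 29 genes, against 5.02% of all genes. Both thresholds were passed by 15 genes, and the share of all genes passing both was not taken. The median was 1.37-fold (0.45 in log2 units), against −0.00 log2 units over all genes. HIST1H2BF had the largest late ratio, 1.92-fold (5.74 against 2.50 FPKM), followed by HIST1H4E at 1.74 (4.73 against 2.30) and HIST1H2AK at 1.64 (3.36 against 1.67). HIST1H2AD and HIST1H4D had a late level below the earlier one. Of the 11 H2B genes 10 passed, of the 8 H2A genes 5, of the H1 genes both, of the H4 genes 2 and of the H3 genes 1 (HIST1H3H, 1.51-fold). Most of the late level lay in 1 library: with 44 h alone 12 genes passed (3.33% of all genes), and with 46 h alone 24 (9.45%).

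**Figure D3:**
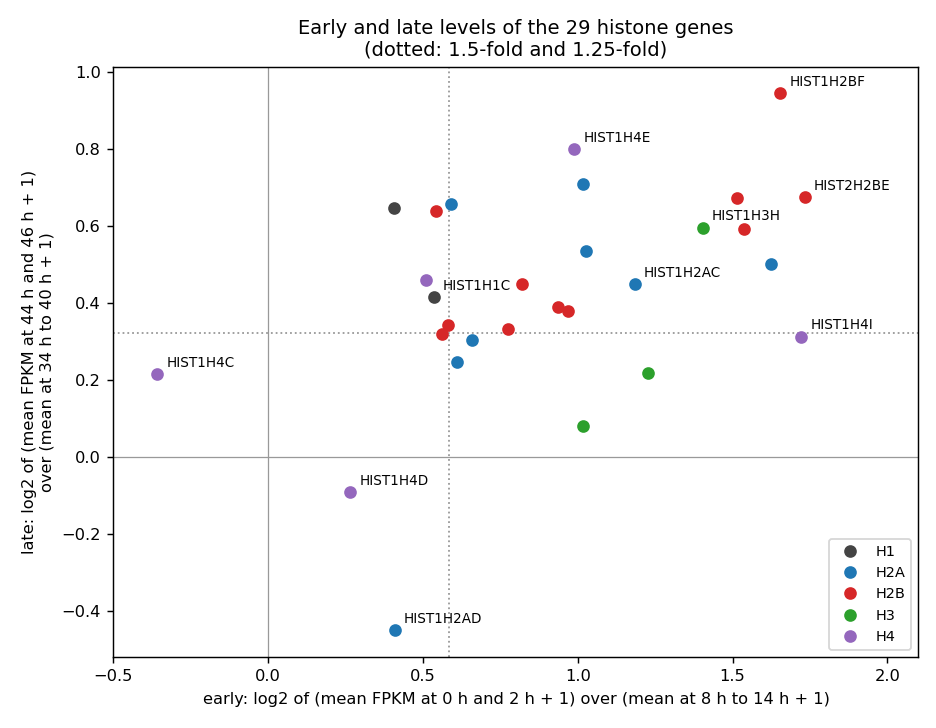
Each point is 1 of the 29 histone genes, coloured by class, with its early ratio on the horizontal and its late ratio on the vertical axis (both log2). Nearly all points lie right of and above 0, with HIST1H4C at the left and HIST1H2AD and HIST1H4D below 0.

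The likeness of the time courses was also described for pairs of genes. Among the 10 histone genes whose mean reached 10 FPKM, the median Pearson r of the 45 pairs was 0.516 over the 24 time points and 0.715 over the 22 without 16 h and 18 h. It was 0.392, with a range from −0.544 to 0.904, when 0 h, 2 h, 44 h and 46 h were left out too. The points of each pair share their libraries, so these values are a description.

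To see how the histone genes followed the cell cycle, they were set beside 14 S phase and 12 G2/M genes, all in the table. Of the S phase genes, which encode the MCM helicase subunits and other replication proteins, 11 were highest within the first day at 2 h to 6 h and 10 within the second day at 24 h to 30 h, as were 22.1% and 35.6% of all genes. MCM5 was highest at 4 h on the first and at 28 h on the second day. Of the histone genes 2 of 29 were highest within the second day at 24 h to 30 h, since most exceeded those values at 46 h, and the smaller maxima of HIST1H2AC and HIST1H2AG at 24 h are not in that count. The early level of the S phase genes was 1.22-fold and the late level 1.05-fold at the median, and 0 of 14 were highest of all time points at 0 h. JTK called 8 of the 14 and the harmonic 7. Of the G2/M genes, 8 of 12 were highest of all at 16 h or 18 h and 8 within the second day at 32 h to 38 h, and the histone genes gave 0 and 2 of 29. Over all genes these shares were 39.3% and 38.4%, and the first maximum falls on the STRIPEs. JTK called 3 of the G2/M genes and the harmonic 1, and their median ratios were 1.05-fold early and 0.907-fold late. Of the 12 G2/M genes 2, CCNB2 and CDC20, were highest of all time points at 0 h, against 4.71% of all genes. The early threshold of 1.5-fold was passed by 2 of 12 G2/M genes and 2 of 14 S phase genes, against 3.01% of all genes. The medians of the lists were not compared by a test, since the histone list was chosen with results known.

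**Figure D4:**
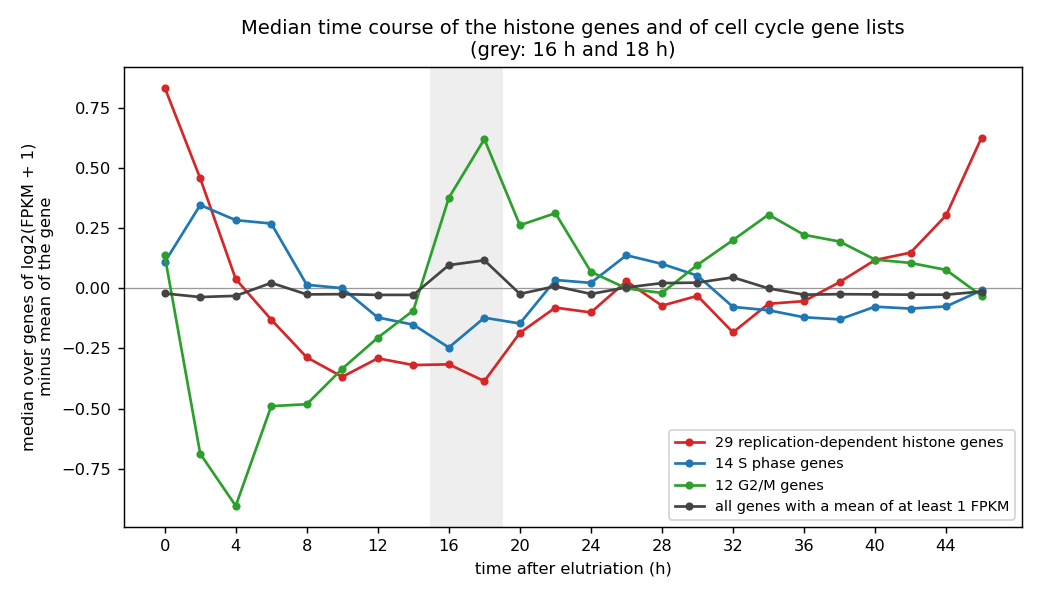
Median over genes of log2(FPKM + 1) minus the mean of each gene, against time after elutriation (h), for the 29 histone genes, 14 S phase genes, 12 G2/M genes and all genes whose mean reached 1 FPKM. The histone line starts at 0.84, is at −0.37 at 10 h and ends at 0.63 at 46 h. The S phase line peaks at 0.35 at 2 h and the G2/M line at 0.62 at 18 h.

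Whether a gene was ordered in time with a period of 24 h was tested with JTK, a rank test against cosine curves of 12 phases, with Benjamini-Hochberg adjustment over all 12285 genes. It called 3 of the 29 histone genes, or 10.3%, against 13% of all genes. They were HIST1H2AC (permutation test, adjusted p = 0.00685), HIST1H2AG (adjusted p = 0.0143) and HIST1H4I (adjusted p = 0.0339). At an unadjusted p below 0.05 there were 15 of 29, and the share of all genes at that level was not taken. With 16 h and 18 h left out JTK called 5 of 29 (16.2% of all genes), adding HIST3H2A and HIST1H2BL. HIST1H2AG and HIST1H4I were no longer called without 0 h and 46 h (adjusted p = 0.0503 and 0.123).

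A 24 h harmonic with linear drift, fitted by limma to log2(FPKM + 1), called 5 of the 29 genes, or 17.2%, against 11.7% of all genes. The median amplitude was 0.30 log2 units for the histone genes and 0.14 over all genes. HIST1H2AC had an amplitude of 0.37 ± 0.06 (SE) with the peak at 23.6 ± 0.72 h (limma adjusted p = 0.00863), and HIST1H2AG 0.49 ± 0.09 with the peak at the same hour (adjusted p = 0.0115). The others were HIST1H2AK (0.45 ± 0.11, adjusted p = 0.0262), HIST1H4I (0.45 ± 0.11, adjusted p = 0.0314) and HIST1H2BD (0.26 ± 0.07, adjusted p = 0.0436). All 5 peaks lay between 1.66 h before and 1.55 h after the start of the cycle. The fitted peaks of the called S phase genes lay at 0.66 h to 5.38 h.

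The number of harmonic calls changed with the STRIPEs and with the period. Without 16 h and 18 h limma called 11 of 29 histone genes, against 15.1% of all genes. The 6 added were HIST1H2BJ, HIST1H3H, HIST3H2A, HIST1H2BO, HIST1H2BH and HIST1H2BL. With periods of 20 h and 28 h it called 1 and 0, against 1.26% and 3.18% of all genes. At an unadjusted p below 0.05 there were 15 and 5 histone genes, with no share of all genes taken at that level. Without 0 h and 46 h 4 of 29 remained past the threshold (8.95% of all genes), the loss being HIST1H2BD (adjusted p = 0.132).

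The second day was compared with the first at matched hours with limma, with the hour of the cycle as a block. Of the 29 genes 4 were higher on the second day, or 13.8%, against 9.44% of all genes, and 0 were lower, against 5.15%. At an unadjusted p below 0.05, 3 were lower, with no share of all genes taken at that level. The 4 were HIST1H2BH (0.35 ± 0.08 log2 units, adjusted p = 0.0102), HIST1H2BL (0.37 ± 0.10, adjusted p = 0.0268), HIST1H2AK (0.48 ± 0.15, adjusted p = 0.0468) and HIST1H2AG (0.40 ± 0.13, adjusted p = 0.0482), each higher at 10 of 12 hours. All 4 are low, with means of 1.22 to 9.65 FPKM. Without 0 h, 2 h and their partners at 24 h and 26 h the number higher was 12 (10.2% of all genes). Without 16 h, 18 h and their partners it was 1, HIST1H2BH (12.6% of all genes).

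HIST1H1C differed in the other direction, with a mean of 381 FPKM on the first and 247 on the second day (−0.52 ± 0.18 log2 units, limma adjusted p = 0.0664). It missed the threshold with all hours and passed it without 16 h, 18 h and their partners (−0.71, adjusted p = 0.00787). HIST1H2BK (−0.30 ± 0.10, adjusted p = 0.0619) and HIST1H2AE (−0.44 ± 0.16, adjusted p = 0.0734) did the same, with −0.34 (adjusted p = 0.0396) and −0.60 (adjusted p = 0.0102) without those hours. Summed over classes, the means on the 2 days were 120.0 and 128 FPKM for H2A, 216 and 209 for H2B, 32.8 and 32.6 for H3, and 22.4 and 25.2 for H4.

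At 16 h and 18 h the histone genes moved both ways. The mean distance from a line drawn from 14 h to 20 h on the log2(FPKM + 1) scale had a median of −0.01 for the histone genes and 0.14 over all genes. Median centring of the time points took the median of all genes down by 0.11 and upper-quartile scaling by 0.20. Of the 29 genes 1 was 2-fold or more above the line (3.45%, against 8.95% of all genes) and 3 were 2-fold or more below (10.3%, against 7.11%). HIST1H3H was above by 1.08, or 0.97 with median centring and 0.85 with upper-quartile scaling, both short of 2-fold. HIST1H1C, at −0.80, passed 2-fold below with upper-quartile scaling (−1.03). HIST3H2A was below by a deviation of −1.86, HIST1H2AD of −1.09 and HIST1H2BJ of −1.05. HIST1H2AD was close to 0 FPKM at several other time points as well, and its deviation lay inside its own range elsewhere.

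As a reference, the same deviation was taken at 16 other pairs of time points. Outside its own range over those pairs lay 12 of the 29 genes, 7 above and 5 below, or 41.4%, against 71.6% of all genes. Above were HIST1H3H, HIST1H4E (0.60), HIST1H4H (0.59), HIST1H2BN (0.55), HIST1H2BD (0.44), HIST2H2BE (0.32) and HIST1H2BC (0.28). Below were HIST3H2A, HIST1H2BJ, HIST1H1C (−0.80), HIST1H2BL (−0.66) and HIST1H2AE (−0.65). HIST1H2AC (−0.00) and HIST1H2AG (−0.01) lay on the line.

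The G+C content of the annotated transcript was set beside this split. The longest transcripts of the 7 genes above had 39.5% to 49.1% G+C (median 47.5%), and those of the 5 below 49.1% to 57.7% (median 57.2%). The 17 genes inside their range had 41.6% to 62.8% (median 59.1%), the highest median of the 3 sets. Across the 29 genes the deviation and the G+C content had a Pearson r of −0.453 (Spearman −0.441), and across 12148 genes of the table −0.515 (Spearman −0.560). The 7 above also had transcripts of 659 to 4137 bases against 488 to 950 for the 5 below. Genes are not independent replicates, and the part of base composition or length in the deviation was not tested. For the early ratio r was −0.353 across the 29 genes and −0.153 across all, and among the 10 genes whose mean reached 10 FPKM it was −0.487, against −0.493 for the deviation.

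**Figure D5:**
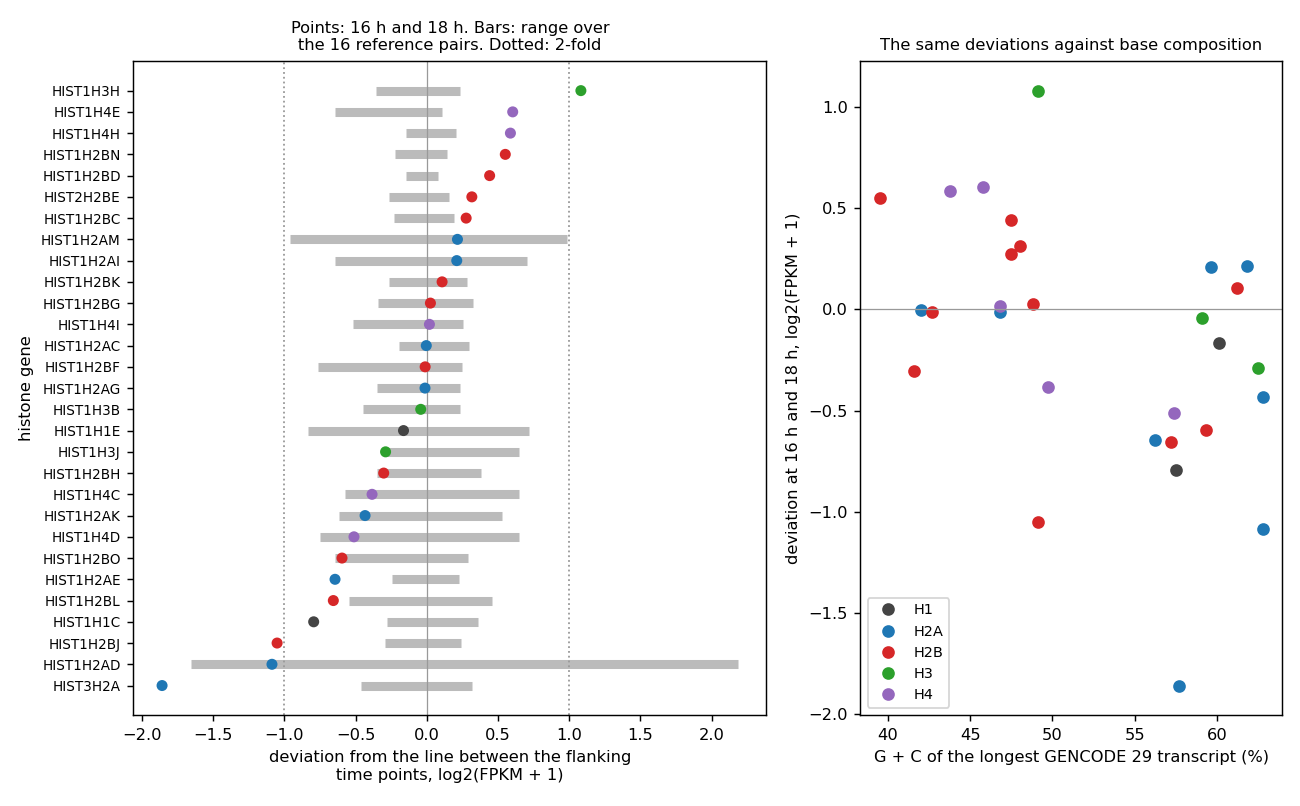
Left, the mean deviation of each histone gene at 16 h and 18 h (points, coloured by class) beside its range over the 16 reference pairs (grey bars), on the log2(FPKM + 1) scale. Right, the same deviations against the G+C content (%) of the longest annotated transcript. HIST3H2A lies lowest at −1.86 and HIST1H3H highest at 1.08, and 12 points lie outside their bars.

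The 14 H2A and H2B genes that face each other in divergent pairs were compared within pairs, since each pair shares the stretch between its starts, 194 to 248 bases long in the 7 pairs. HIST1H2AC and HIST1H2BC, 246 bases apart, followed each other over the 24 time points (Pearson r 0.811). That likeness was not particular to the pair. With HIST2H2BE, which lies in another cluster, HIST1H2AC had an r of 0.864 and HIST1H2BC of 0.895. The median of the 45 pairs among genes whose mean reached 10 FPKM was 0.516. HIST1H2AG and HIST1H2BJ had an r of 0.699, and 0.864 without 16 h and 18 h. Their deviations at those time points were −0.01 and −1.05, although both genes start from the window printed above. Over the 22 time points without 16 h and 18 h, the other pairs had lower r values. They were 0.655 for HIST1H2AK and HIST1H2BN, 0.425 for HIST1H2AE and HIST1H2BG, 0.339 for HIST1H2AM and HIST1H2BO, 0.286 for HIST1H2AI and HIST1H2BL, and 0.105 for HIST1H2AD and HIST1H2BF. The genes of these 5 pairs had means of 1.22 to 7.99 FPKM. Reads of HIST1H2AK and HIST1H2BN cannot be told apart, and the part of shared reads in their r was not tested. The level was not shared in every pair: HIST1H2AC had 74.7 against 18.8 FPKM for HIST1H2BC, and HIST1H2AG 9.65 against 51.0 for HIST1H2BJ. HIST1H2AE and HIST1H2BG were close, with 6.70 and 7.99 FPKM. The means were 7.22 and 1.22 for HIST1H2AI and HIST1H2BL, and 1.72 and 7.56 for HIST1H2AK and HIST1H2BN. They were 1.70 and 4.05 for HIST1H2AM and HIST1H2BO, and 1.36 and 2.43 for HIST1H2AD and HIST1H2BF.

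The low H2A genes HIST1H2AD, HIST1H2AM and HIST1H2AI had isolated values of their own. HIST1H2AD was at 4.56 FPKM at 6 h and 4.70 at 32 h but near 0 in 4 libraries, with 0.00143, 0.000405, 0.00121 and 0.000267 FPKM (16 h, 24 h, 30 h and 44 h). HIST1H2AM was highest at 32 h (3.98 FPKM) and at 0.00017 at 14 h. HIST1H2AI had 10.7 FPKM at 6 h between 7.69 at 4 h and 5.01 at 8 h, and 11 at 32 h between 6.12 at 30 h and 8.71 at 34 h. These are the genes with 98.0%, 86.3% and 62.3% of their 50-base stretches in other genes, and the part of shared sequence was not tested.

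Genes that act on or beside the replication-dependent histones were followed from lists of their known roles. Of 12 variant and replication-independent histone genes 8 were in the table. Their median early ratio was 1.02-fold and late ratio 0.952-fold, with 1 called by JTK and by the harmonic (H2AFX, the variant phosphorylated at DNA breaks, adjusted p = 0.00918 and 0.0461). The linker histone gene H1FX had the largest early ratio of the 8, at 95.0 FPKM at 0 h, 40.7 at 14 h and 52.2 at 46 h, which gave a ratio of 2.26-fold and a deviation of −2.12 at 16 h and 18 h. H2AFZ, the H2A.Z gene, had 491 FPKM at 0 h and 427 at 46 h. By limma, CENPA, the centromeric H3, was higher on the second day (0.64 ± 0.14 log2 units, adjusted p = 0.00684), and H3F3B (−0.32 ± 0.06, adjusted p = 0.00378) and H2AFY (−0.16 ± 0.04, adjusted p = 0.0233) were lower.

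All 10 genes listed as regulators of histone transcription were in the table, with 2 called by JTK and 3 by the harmonic. Their median early ratio was 1.21-fold, with 4 of 10 at 1.5-fold or more, and their late ratio 1.03-fold, with 0 of 10 at the late threshold. JTK called E2F1 (adjusted p = 0.0152) and CCNE2 (adjusted p = 0.00509), and the harmonic these and CCNE1 (limma adjusted p = 0.0233). CCNE2, a cyclin that activates CDK2 at the start of S phase, had an early ratio of 1.78-fold and a late ratio of 0.985. NPAT, the coactivator of histone genes that CDK2 phosphorylates, had 12.1 to 24.6 FPKM, highest at 18 h, and was called by neither test (adjusted p = 0.118 by JTK and 0.0945 by limma). POU2F1, the octamer factor, was above its flanks by 1.03 log2 units at 16 h and 18 h.

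Of 16 genes for processing and turnover of histone mRNA 14 were in the table, and 3 were called by JTK: SRRT (adjusted p = 0.0143), LSM11 and UPF1 (both 0.0165). The harmonic called SRRT and UPF1, the median ratios were 1.02-fold early and 0.941-fold late, and 0 of 14 passed either threshold. SLBP, the hairpin binding protein, had 97.9 to 159 FPKM with its highest value at 18 h, an early ratio of 1.32-fold and a late ratio of 0.932 (JTK adjusted p = 0.583). LSM11 is a subunit of the U7 particle that cuts the precursor behind the hairpin, and UPF1 takes part in the decay of histone mRNA. Lower on the second day by limma were DHX9 (−0.30 ± 0.05, adjusted p = 0.00244) and MIF4GD (−0.32 ± 0.08, adjusted p = 0.0180), a partner of SLBP. Among 12 histone chaperones the harmonic called 3 and JTK 4, namely ASF1B (adjusted p = 0.00532), CHAF1B (0.00685), RBBP7 and HIRA (both 0.0231). The median early ratio of the chaperones was 0.02 and their late ratio 0.01 log2 units, and 0 of the 12 passed either threshold.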

How the data were processed

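RNA of K562 cells was sequenced at 24 time points, 1 library each, on an Illumina instrument. The authors aligned the reads with STAR and made the FPKM values with Cufflinks2 and Cuffnorm, on GRCh37 per the submitters' processing notes. Other versions, annotation, strand and poly(A) selection are not given in the sources used here. The deposited FPKM table held genes at 1 FPKM or more in at least 12 time points. It gives no counts, so depth is unknown and intervals for counting error could not be given. A cleaned table that the authors deposited, with scores after Z-scoring and quantile normalization, was used only as an alternative for JTK.

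Ensembl identifiers were matched to GENCODE 29 without version (12180 of 12285). GENCODE 29 is on GRCh38, so no gene coordinates from it are printed. Its positions were used to find genes that overlap, on another build than that of the reads. Tests were JTK with 100000 permutations, and limma 3.58.1 in R 4.3.3 with trend on log2(FPKM + 1) over the 12253 genes whose mean reached 1 FPKM, with Benjamini-Hochberg adjusted p at 0.05. Deviations and ratios were not tested. Python 3.11.15, numpy 2.4.6, pandas 2.3.3, scipy 1.17.1 and matplotlib 3.10.9 were used. Both tests were tested on simulated data. Hairpins were searched along whole transcripts, not only in their last 100 bases as first planned. Only stems opening with GG and loops opening with TT were taken.

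Every histone gene is named at least once. Values at all time points are given for the gene with the highest mean in each class, the 3 with the largest JTK statistic, and the 2 highest and 2 lowest deviations among those whose mean reached 10 FPKM. The genes and lists were chosen with earlier results of these data known. Proteins were not compared. A marker gene is not reported here.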

Additional observations from a re-analysis of the deposited data

How the results depend on the processing

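The counts are those of the 29 histone genes unless stated, and all rest on single libraries of unknown depth at each time point. Percentages in brackets are the shares of all genes tested under the same setting. Counts at an unadjusted p have no such share. The order-in-time test called 3 genes with all time points (13%). It called 5 without 16 h and 18 h (16.2%), 5 with both interpolated by PCHIP (18.4%), 1 with a 20 h period (3.22%), 0 with a 28 h period (3.21%, and 4 histone genes at an unadjusted p below 0.05), 1 of the 10 genes whose mean reached 10 FPKM (16.2%), and 1 without 0 h and 46 h (9.43%). The limma harmonic called 5 (11.7%). It called 11 without 16 h and 18 h (15.1%), 1 with 20 h (1.26%), 0 with 28 h (3.18%, 5 unadjusted) and 2 of the 10 genes (14.2%). The limma comparison of days called 4 higher (9.44%). It called 2 with median centring (8.53%), 1 with quantile normalization (8.85%), 0 of the 10 genes (5.91%, 0 unadjusted) and, leaving out hours with their partners, 1 without 16 h and 18 h (12.6%), 2 without 6 h and 32 h (6.42%) and 12 without 0 h and 2 h (10.2%). It called 0 lower with all time points (5.15%, 3 unadjusted), 1 with quantile normalization (8.01%) and 3 without 16 h and 18 h (7.04%). At 16 h and 18 h, 1 gene was 2-fold above the flanks (8.95%), against 2 with a pseudocount of 0.1 (11%), 3 at 1.5-fold (23.9%), 0 with median centring (6.48%) and 0 with upper-quartile scaling (4.73%). Below were 3 (7.11%), against 5 with a pseudocount of 0.1 (10.7%), 7 at 1.5-fold (16.8%) and 4 with upper-quartile scaling (10.6%). The fewer genes tested limit the counts of the 10 genes. For the other settings the cause was not tested.

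The early threshold was passed by 7 of those 10 genes (1.38%), the late one by 9 of the 10 (2.55%), and 5 of the 10 were highest at 0 h (3.54%). With 44 h alone in place of 44 h and 46 h the late threshold was passed by 12 (3.33%), not 20 (5.02%). In the comparison of days and in the deviations, no gene called or at 2-fold or more reversed its direction under these alternatives. The JTK statistic and the harmonic amplitude carry no sign, so no reversal could appear there. Peak hours were not compared between settings. The settings without 0 h, 2 h or 46 h, and all those for early and late levels, were chosen after seeing the data. The comparison of days paired the libraries by hour, and no pairing by replicate number could be made, since the labels give none.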
